A study of Mus musculus with 4 samples.

Results

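The Mup genes encode the major urinary proteins, small secreted proteins of the lipocalin family. Members were chosen by symbol, and Mup1, Mup2, Mup3, Mup4, Mup5, Mup20 and Mup21 made up 7 of the 24346 gene symbols in the tables. Another 13 symbols that start with Mup are described where they bear on these members. The values came from sequenced liver RNA of male ob/ob mice, whose obesity comes from a lack of leptin. The study asked whether a small amount of 7-ketocholesterol (7KC), an oxidized form of cholesterol, alters the liver of obese mice when it is added to food. Mice 6 weeks old were given a chow diet (CD), the chow diet with 7KC (CD+7KC), a high-fat Western diet (WD) or the Western diet with 7KC (WD+7KC) for 4 weeks. All 4 diets contained 1% cholesterol, the diets with 7KC contained 0.01% of it, and the Western diet held more sucrose and had cocoa butter as its fat in place of corn oil. All 4 groups carried the ob/ob genotype, so a lean group was not part of the comparison. Each group had 1 library, and how many mice a library stands for is not given in the sources used here. Differences between libraries are therefore described by their size and their counting error, without p-values. The tissue label was borne out by hepatocyte markers, whose 10 genes summed to between 43900 and 56387 FPKM (mapped fragments scaled to exon length and to library size).

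Hepatocytes are the main source of circulating MUPs, which pass through the kidney into the urine, bind small volatile molecules there and act in scent communication between mice. Several Mup genes are also used in salivary, lacrimal and nasal glands. In liver, their mRNA depends on the pulsatile growth hormone pattern of adult males, which acts through the receptor Ghr and the transcription factor Stat5b, and it responds to androgens, glucocorticoids and feeding. Mup mRNA has also been studied as a metabolic readout, since it is known to be low in obese and diabetic mice.

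The family lies in 1 block on mouse chromosome 4. In the GENCODE annotation of GRCm38 (mm10), the block ran from Mup4 to Mup21 (chr4:59956804-62150863), spanned 2.19 Mb, and held 22 protein-coding genes, all of them Mup genes, and 26 Mup pseudogenes. The tables list 20 of these 22 genes, and Mup18 and Mup22 were not analysed here. Mup4 (chr4:59956804-59960710) stands at 1 edge of the block. Mup5 (chr4:61831319-61835233), Mup20 (chr4:62050234-62054158), Mup3 (chr4:62083476-62087342) and Mup21 (chr4:62147932-62150863) stand near the other edge. Mup2 (chr4:60135932-60154289) and Mup1 (chr4:60498012-60501960) stand in the central part. All 7 members are protein-coding genes on the minus strand.

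How alike the members are decides how well short reads can tell them apart. The coding sequences of Mup1 and Mup2 were 99.4% identical, those of Mup3 and Mup21 were 94.7% identical, and Mup1 and Mup3 were 82.4% identical. Mup20 stood between these, with 90.6% identity to Mup1 and 86.6% to Mup3. The stretch of 75 coding bases printed here is as long as 1 read of this experiment. It was picked as the stretch without gaps where members vary at the most positions, 30 of 75, so it overstates how far they differ. Mup2, Mup20, Mup21 and Mup3 stand in the same order from Mup1 as over the whole coding sequence. Mup4 and Mup5 are nearer to Mup1 than Mup20 here, but not over the whole, at 88.7% and 90.2% identity. The stretch covers coding bases 226 to 300 of Mup1 and the aligned bases of the other members. It is written 5′ to 3′ on the coding strand, and has capitals where a member differs from Mup1.
Mup1: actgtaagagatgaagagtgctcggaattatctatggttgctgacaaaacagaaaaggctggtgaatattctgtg
Mup2: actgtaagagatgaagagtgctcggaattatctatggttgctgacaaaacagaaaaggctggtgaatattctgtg
Mup4: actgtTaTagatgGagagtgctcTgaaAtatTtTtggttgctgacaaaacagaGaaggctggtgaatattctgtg
Mup5: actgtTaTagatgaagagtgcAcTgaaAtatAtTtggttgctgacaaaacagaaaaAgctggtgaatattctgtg
Mup20: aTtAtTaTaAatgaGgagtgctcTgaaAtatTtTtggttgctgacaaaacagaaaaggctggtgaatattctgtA
Mup21: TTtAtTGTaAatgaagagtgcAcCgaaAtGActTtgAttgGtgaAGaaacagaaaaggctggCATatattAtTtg
Mup3: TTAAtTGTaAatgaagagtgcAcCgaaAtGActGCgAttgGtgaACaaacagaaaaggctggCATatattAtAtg
Mup1 and Mup2 had no difference over this stretch, so a read from it could come from either gene. Mup4 and Mup5 differed from Mup1 at 8 bases each and Mup20 at 11. Mup21 and Mup3 differed from it at 22 and 24 bases. Over their whole mRNAs, the share of 75-base windows found in no other annotated gene was 99.6% for Mup4, 95.4% for Mup5, 92.8% for Mup3 and 89.7% for Mup21. It was 56.4% for Mup20, whose other windows were shared with 1 pseudogene, Mup-ps19, so that some reads of this pair could come from either. By contrast, this share was 9.50% for Mup1 and 0% for Mup2. The levels of Mup1 and Mup2 are for that reason uncertain as levels of single genes, because reads from central Mup genes could be divided among them in several ways. How such reads were divided is not given in the sources used here.

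Mup20 and Mup3 carried nearly all the member mRNA in each library. Mup20, which encodes the male pheromone protein darcin, was at 2754 FPKM (CD), 2454 (CD+7KC), 8315 (WD) and 5747 (WD+7KC). Both Western diet libraries were above both chow libraries, and within each diet the library with 7KC was the lower one. Mup3 was at 2916 FPKM (CD), 1596 (CD+7KC), 1184 (WD) and 708.5 (WD+7KC). Its order was the reverse between diets, with the chow libraries above the Western diet libraries, but it was again lower with 7KC within each diet. Mup21, the member most like Mup3 in sequence, was at 86.5 FPKM (CD), 44.7 (CD+7KC), 44.7 (WD) and 28.6 (WD+7KC). CD stood apart as the highest, and CD+7KC and WD were at the same level. At these depths Mup21 rested on an estimated 165 to 450 reads per library, whereas Mup3 had 6314 to 23486 and Mup20 had 19718 to 56861.

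The other 4 members were low in all libraries. Mup1 was at 6.78 FPKM (CD), 9.06 (CD+7KC), 0.538 (WD) and 0.139 (WD+7KC). Mup2 was at 5.60 FPKM (CD), 3.99 (CD+7KC), 0.186 (WD) and 0.145 (WD+7KC). Both were present in the chow libraries and rested on an estimated 1 to 4 reads in the Western diet libraries. Mup5, best known from salivary and lacrimal glands, was at 3.002 FPKM (CD), 3.81 (CD+7KC), 1.59 (WD) and 1.36 (WD+7KC). Mup4, best known from nasal and lacrimal tissue, was at 0.679 FPKM (CD), 2.03 (CD+7KC), 0.474 (WD) and 0.368 (WD+7KC). For Mup4 the estimate was 16 reads in CD+7KC and 3 to 5 in the other libraries. As a check on gland tissue, 5 of 6 markers of salivary, lacrimal and olfactory gland (Bpifa2, Smr2, Smr3a, Obp1a and Muc5b) were at 0 in all 4 libraries, and the 1 that was present, Amy1, is an amylase that liver also makes and was at 125.5 to 204.9 FPKM. The plot of members by library shows these levels on a common scale.

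**Figure D1:**
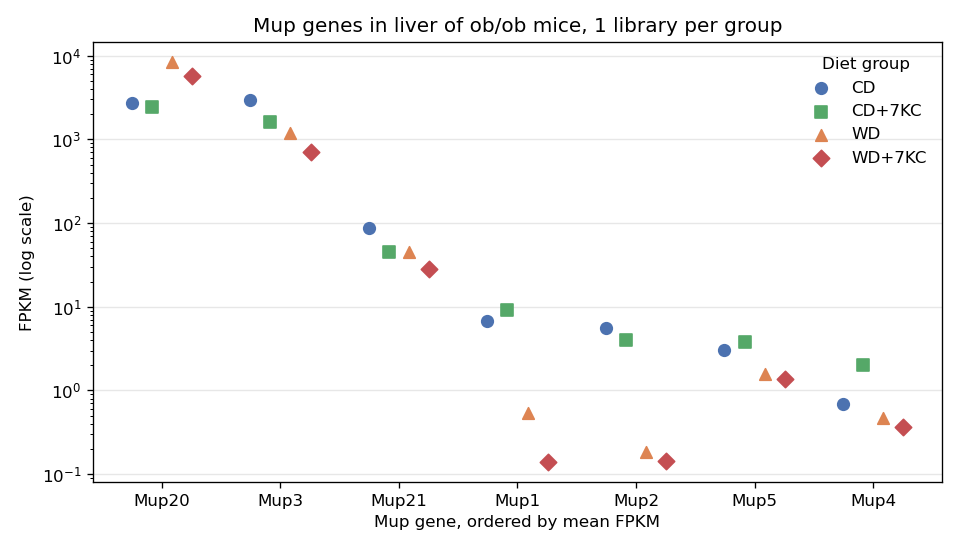
FPKM of the 7 Mup members on a log axis, 1 point per library and group, with genes ordered by their mean over the 4 libraries. Mup20 and Mup3 lie between 708.5 and 8315 FPKM, Mup21 between 28.6 and 86.5, and the other 4 members at 9.06 FPKM or less, and Mup20 alone has its Western diet points above its chow points.

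The make-up of the pool differed more between diets than its size. The 7 members summed to 5772 FPKM (CD), 4114 (CD+7KC), 9547 (WD) and 6486 (WD+7KC). This sum was 0.807%, 0.591%, 1.36% and 1.08% of all FPKM in the 4 libraries, in that order. Mup3 made up 50.5% of the sum (CD), 38.8% (CD+7KC), 12.4% (WD) and 10.9% (WD+7KC). Mup20 made up 47.7% of it (CD), 59.7% (CD+7KC), 87.1% (WD) and 88.6% (WD+7KC). The chow libraries thus held Mup20 and Mup3 in like amounts, while the Western diet libraries held mostly Mup20. Expressed as a ratio, Mup20 over Mup3 was 0.945 (CD), 1.54 (CD+7KC), 7.02 (WD) and 8.11 (WD+7KC). The ratio of Mup3 to Mup21 varied less, at 33.7, 35.7, 26.5 and 24.8. These shares and ratios are taken within a library and do not depend on how libraries are scaled to each other. Among all genes ordered by FPKM, Mup20 was number 33 (CD), 35 (CD+7KC), 9 (WD) and 10 (WD+7KC). Mup3 was number 31, 50, 64 and 101 in the same libraries.

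**Figure D2:**
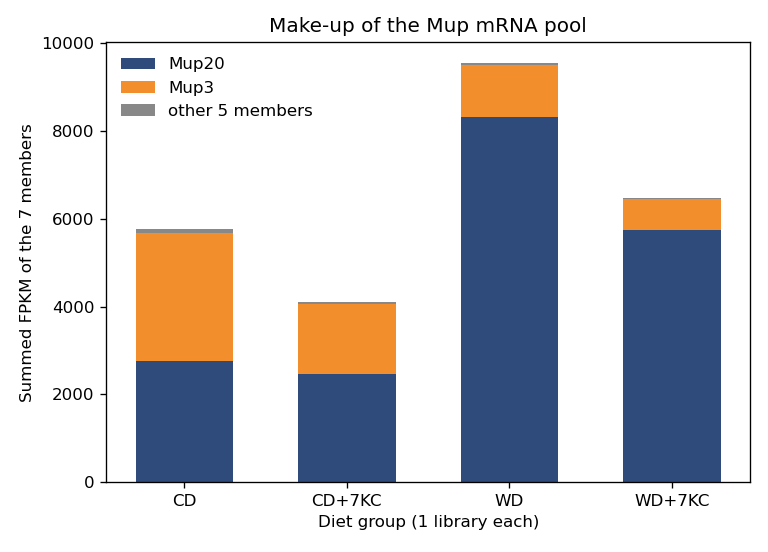
Summed FPKM of the 7 members in each library, as stacked bars from 0, divided into Mup20, Mup3 and the other 5 members. The sum is highest in WD, at 9547 FPKM, and the Mup3 part shrinks from 50.5% of the bar in CD to 10.9% in WD+7KC.

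The first question was how the Mup genes differed between the diets. In WD relative to CD, Mup20 was 3.02-fold higher, a log2 fold change of 1.59 with a 95% counting interval of 1.57 to 1.62. Mup3 was 2.46-fold lower (log2 fold change −1.30, interval −1.34 to −1.26) and Mup21 was 1.93-fold lower (−0.95, −1.20 to −0.71). Log2 fold changes here are of FPKM plus 0.1, and intervals are exact ones for the ratio of estimated reads, covering counting error and not the variation between mice. For Mup1, the ratio was 12.6-fold lower, with 4 against 54 estimated reads and an interval from −5.47 to −2.10 on the log2 scale. For Mup2, it was 30.1-fold lower, with 1 against 44 reads and an interval from −10.58 to −2.69. Mup5 (log2 fold change −0.88) and Mup4 (−0.44) were lower too, but with intervals that included 0. Hence 6 of 7 members were lower and 1 was higher, and the median log2 fold change was −0.95 over members and 0.010 over the 15597 genes tested. Beyond a log2 fold change of 1 in either direction, 1 member was above (Mup20) and 3 were below (Mup1, Mup2 and Mup3). Over all genes tested, 5.31% were above 1 and 4.38% were below −1. As a sum, the members were 1.65-fold higher in WD (log2 fold change 0.73, interval 0.71 to 0.74), which was the direction of Mup20 and not of the other 6.

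The same contrast in mice given 7KC had the same directions. In WD+7KC relative to CD+7KC, Mup20 was 2.34-fold higher (log2 fold change 1.23, interval 1.20 to 1.25). Mup3 was 2.25-fold lower (−1.17, −1.22 to −1.13) and Mup21 was 1.56-fold lower (−0.64, −0.94 to −0.35). Mup5 was 2.81-fold lower, on 12 against 30 reads, with an interval of −2.55 to −0.44. Mup4 was 5.51-fold lower, on 3 against 16 reads, with an interval of −4.97 to −0.74. For Mup1 and Mup2 only 1 read each was estimated in WD+7KC, and their ratios were 65.0-fold lower (interval −11.64 to −3.80) and 27.6-fold lower (−10.48 to −2.55). Again 6 of 7 members were lower, with a median of −1.42 against 0.003 over 15898 genes. Past the threshold, 1 member was above 1 and 5 were below −1, while 8.01% of all genes were above and 4.61% below. The summed members were 1.58-fold higher (log2 fold change 0.66). The libraries of this contrast are others than those of WD relative to CD, but each contrast still rests on 1 library per side.

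**Figure D3:**
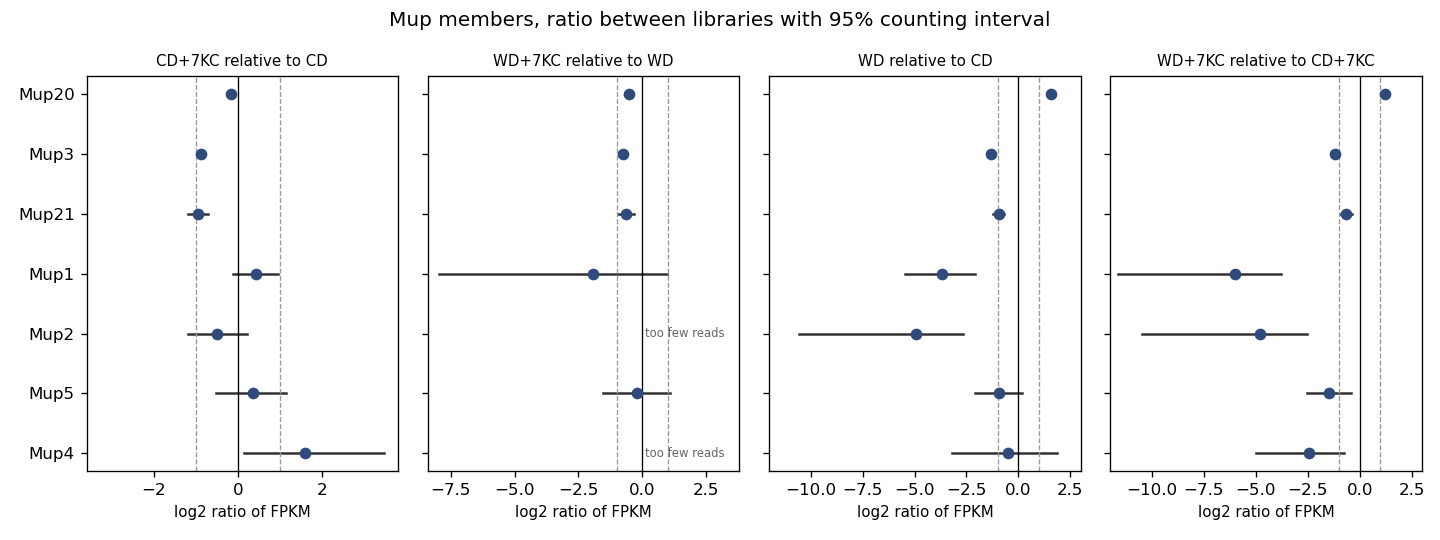
Log2 ratio of FPKM for each member in the 4 comparisons, with points for the ratio without a pseudocount, bars for the 95% counting interval (narrower than the point for Mup20 and Mup3), dashed lines at −1 and 1, and x axes that differ between panels. Mup20 is the only member to the right of 0 in both diet comparisons, at a log2 fold change of 1.59 and 1.23, and no ratio is drawn for Mup2 and Mup4 in WD+7KC relative to WD, where both libraries had 3 reads or fewer.

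Because single central genes cannot be told apart well, the 14 Mup symbols with under 50% of their 75-base windows to themselves were also summed, a grouping chosen after the values had been seen. Besides Mup1 and Mup2 the sum holds 12 other symbols. It was 76.5 FPKM (CD), 60.3 (CD+7KC), 6.07 (WD) and 3.89 (WD+7KC), on an estimated 605, 477, 42.3 and 34.9 reads. Both Western diet libraries lay far below both chow libraries. The sum was 12.6-fold lower in WD than in CD (log2 fold change −3.64, interval −4.15 to −3.22) and 15.5-fold lower in WD+7KC than in CD+7KC (−3.92, −4.49 to −3.45). A sum over these genes is less affected than any 1 of them by how shared reads were divided. Among the 12 others, Mup14 was the highest, at 24.4 FPKM (CD), 11.4 (CD+7KC), 2.64 (WD) and 0.913 (WD+7KC). Mup16 was at 15.01, 13.01, 0.625 and 1.03 FPKM in the same order, and Mup9 was at 13.4, 15.1, 0.625 and 0.365. Mup12 was at 4.16, 3.75, 0.156 and 0.364 FPKM, and Mup7 was at 5.27, 2.85, 1.28 and 0.794. In each of these 5 genes both Western diet libraries were lower than both chow libraries. Mup6, which shares no 75-base window with another gene, stands next to Mup4 and had the same order, with 4.64, 5.71, 2.22 and 0.494 FPKM. Along the block, Mup20 was the only gene with enough reads for a ratio that was higher on the Western diet in both contrasts, although its neighbours Mup5 and Mup3 were lower in both.

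**Figure D4:**
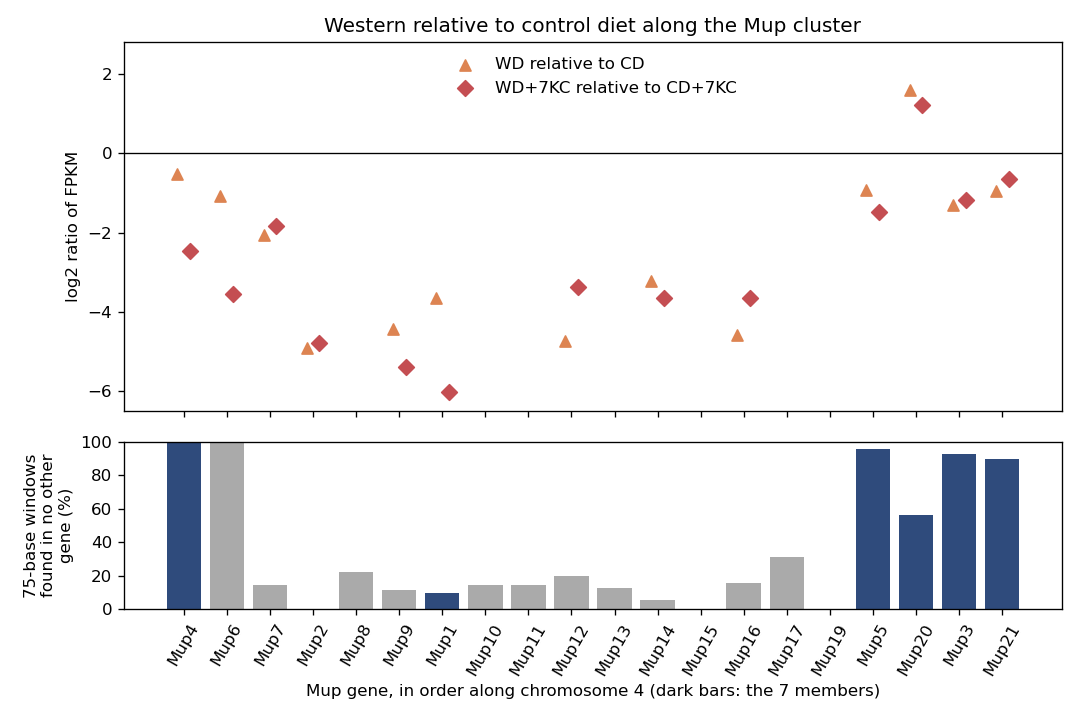
Upper panel, log2 ratio of FPKM between Western and chow diet, without and with 7KC, for Mup genes in their order along chromosome 4; genes with 3 or fewer estimated reads in both libraries or a library at 0 have no point. Lower panel, percent of 75-base windows of each mRNA found in no other gene; Mup20 is the only gene above 0 in both contrasts, and central genes such as Mup1 (9.50%) and Mup2 (0%) share most of their sequence.

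The second question was how the Mup genes differed with 7KC within a diet. In CD+7KC relative to CD, Mup3 was 1.83-fold lower (log2 fold change −0.87, interval −0.90 to −0.84) and Mup21 was 1.93-fold lower (−0.95, −1.18 to −0.72). Mup20 was 1.12-fold lower (−0.17, −0.19 to −0.14), which is the smallest difference of the 7 members. Mup4 was 2.99-fold higher, on 16 against 5 reads, with an interval of 0.15 to 3.47. The log2 fold changes of Mup1 (0.41), Mup5 (0.33) and Mup2 (−0.48) had intervals that included 0. In all, 3 members were higher and 4 lower, and the median was −0.17 against −0.001 over 15684 genes. With 1 member (Mup4) above 1 and 0 below −1, against 3.84% and 2.91% of all genes, the calls rested on a gene of few reads. Mup3 and Mup21 stood just inside the threshold. The member sum was 1.40-fold lower (log2 fold change −0.49, interval −0.51 to −0.47), and the near-identical central genes as a sum were 1.27-fold lower (−0.34, −0.52 to −0.17).

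On the Western diet, all 7 members had a lower FPKM with 7KC, but counting intervals lay below 0 only for Mup3, Mup21 and Mup20. In WD+7KC relative to WD, Mup3 was 1.67-fold lower (log2 fold change −0.74, interval −0.79 to −0.69), Mup21 was 1.56-fold lower (−0.64, −0.95 to −0.34) and Mup20 was 1.45-fold lower (−0.53, −0.55 to −0.52). Mup5 had 12 and 11 estimated reads and a log2 fold change of −0.21 with an interval from −1.54 to 1.09. Mup1 was past the threshold at −1.41, but on 1 against 4 reads and with an interval from −7.98 to 0.97. Mup2 and Mup4 had 3 reads or fewer in both libraries, and no fold is given for them. So 1 of 7 members was below −1 and 0 were above 1, where 2.79% and 6.21% of the 15753 genes tested were. The median was −0.53 over members and 0.002 over all genes. The member sum was 1.47-fold lower (−0.56, −0.57 to −0.54), and the sum over near-identical central genes was 1.56-fold lower with an interval from −1.32 to 0.06. In this comparison the scale matters, since the FPKM of all genes summed to 602059 in WD+7KC and to 696062 to 715605 in the other libraries. Rescaling to equal sums moved the median of all genes by 0.22, and the log2 fold change of the member sum became −0.34. Under it Mup3, Mup21 and Mup20 remained lower. Whether the 7KC difference itself was unlike between the diets was not tested, as this would need replicates.

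Other genes that hepatocytes secrete give a measure for these differences with 7KC. In WD+7KC relative to WD, 29 of 31 genes for abundant secreted hepatocyte proteins were lower, 0 were past the threshold, and the median was −0.27. Over all genes tested there, 6.21% were above 1 and 2.79% below −1. Rescaling to equal sums shifts this comparison upward by 0.22, so both the median and the number of lower genes depend on the scale. In CD+7KC relative to CD, 25 of 31 were lower, with a median of −0.21. Albumin (Alb), the most abundant transcript, was at 35084 FPKM (CD), 31205 (CD+7KC), 35981 (WD) and 30014 (WD+7KC). The log2 fold changes of Alb with 7KC were −0.17 and −0.26, and with diet they were 0.036 and −0.056. Mup3 was thus further from 0 than the list median in all 4 comparisons. Mup20 was nearer to 0 than that median in CD+7KC relative to CD, at −0.17 against −0.21. In WD+7KC relative to WD, Mup20 was further from 0, at −0.53 against −0.27. In the same order of libraries, Serpina3k, a serine protease inhibitor gene, was at 4666, 2472, 2097 and 1362 FPKM, and Apoa1, the main apolipoprotein of HDL, was at 7081, 4322, 8322 and 5501. Fetub, a fetuin, was at 244.3, 176.4, 180.2 and 116.0 FPKM. Serpina3k had the order of Mup3, and Apoa1 was lower with 7KC and higher on the Western diet, like Mup20. Apob (log2 fold change 0.066) and Pzp (0.006) were the 2 of the list that were not lower in WD+7KC.

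Of cell type markers, those of macrophages summed to 183.5 FPKM (CD), 287.1 (CD+7KC), 312.4 (WD) and 606.8 (WD+7KC), and all 10 genes were higher in each of the 4 comparisons. The 7 sinusoidal endothelial markers summed to 62.3, 89.5, 48.9 and 139.3 FPKM. Hepatocyte markers summed to 56057, 47396, 56387 and 43900 FPKM, and all 10 were lower in WD+7KC than in WD on the deposited scale. Rescaling to equal sums shifts this comparison upward by 0.22. That is more than the log2 fold changes of Cps1 (−0.13), Ass1 (−0.15), Hnf4a (−0.17) and Tat (−0.20), while the other markers differed by more. The marker sums moved with 7KC, and their part in the lower Mup levels was not tested. In whole liver, fewer hepatocytes and less Mup mRNA per hepatocyte cannot be told apart.

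The promoters are shown so that members of the central part and of the far edge can be compared. They reach from 250 bases before to 50 bases after the annotated start, were taken from RefSeq (GRCm38.p6) and matched 4 members by symbol, while Mup1, Mup5 and Mup20 were not matched. They are those of Mup3 (chr4:62087268-62087567), Mup21 (chr4:62150792-62151091), Mup2 (chr4:60139807-60140106) and Mup4 (chr4:59960618-59960917), all on the minus strand and written 5′ to 3′ in the direction of transcription. Capitals mark matches to TATAA, the motif that helps to place the transcription start, and to ATCAAT, the core of the site for HNF6, a liver transcription factor encoded by Onecut1. Both strands were searched and no match overlapped another.
Mup3: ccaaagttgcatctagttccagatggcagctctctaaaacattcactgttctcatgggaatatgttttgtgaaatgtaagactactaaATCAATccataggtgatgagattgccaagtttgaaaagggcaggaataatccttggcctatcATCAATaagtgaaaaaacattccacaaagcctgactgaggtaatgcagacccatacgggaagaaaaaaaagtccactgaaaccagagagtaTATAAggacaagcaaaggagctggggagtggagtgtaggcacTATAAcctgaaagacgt
Mup21: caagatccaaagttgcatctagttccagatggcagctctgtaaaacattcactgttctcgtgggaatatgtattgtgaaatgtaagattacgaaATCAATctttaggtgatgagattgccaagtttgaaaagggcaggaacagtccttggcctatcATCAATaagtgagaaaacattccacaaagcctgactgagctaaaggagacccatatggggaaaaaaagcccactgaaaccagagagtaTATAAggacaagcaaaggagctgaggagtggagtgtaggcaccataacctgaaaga
Mup2: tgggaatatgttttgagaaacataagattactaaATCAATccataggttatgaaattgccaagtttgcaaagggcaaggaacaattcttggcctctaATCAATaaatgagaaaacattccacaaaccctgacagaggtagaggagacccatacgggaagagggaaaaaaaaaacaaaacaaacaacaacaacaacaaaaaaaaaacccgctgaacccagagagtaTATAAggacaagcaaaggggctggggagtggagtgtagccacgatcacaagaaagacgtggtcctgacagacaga
Mup4: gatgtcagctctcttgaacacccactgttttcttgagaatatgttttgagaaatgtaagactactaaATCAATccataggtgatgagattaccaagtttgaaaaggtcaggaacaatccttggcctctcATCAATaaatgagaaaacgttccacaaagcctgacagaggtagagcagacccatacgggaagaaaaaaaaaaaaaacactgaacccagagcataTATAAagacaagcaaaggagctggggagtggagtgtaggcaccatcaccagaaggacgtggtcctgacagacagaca
All 4 promoters held ATCAAT at 2 places and TATAA at least once. In Mup2 and Mup4, TATAA began 25 and 27 bases before the start, and in Mup3 and Mup21 it began 9 and 6 bases before it, so that the annotated start lay nearer to it. Over all 14 Mup promoters of that table, 14 held ATCAAT and 13 held TATAA, while 7.54% and 24.9% of 32851 mouse promoters of this length did. The letters TTCNNNGAA, the site of STAT factors such as Stat5b, were in 0 of the 14 and in 8.30% of all promoters. The Mup promoters printed here are much alike, so counts over the 14 are not counts of independent sequences. A match is a run of letters only, and nothing about binding was measured. Onecut1 itself was low, at 1.18 FPKM (CD), 0.615 (CD+7KC), 0.913 (WD) and 1.22 (WD+7KC).

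In the growth hormone pathway, 0 of 16 genes tested in WD relative to CD were above the threshold and 1 was below it. Their median was −0.25, and 5.31% and 4.38% of all genes were above and below. In WD+7KC relative to CD+7KC, 3 of 17 were above (Socs1, Socs2 and Cish) and 1 was below, with a median of 0.36, where 8.01% and 4.61% of all genes were. Socs1 was at 0.405 FPKM or less in all libraries and was named after its values had been seen. With 7KC, 0 were above and 1 below on chow, and 1 above and 0 below on the Western diet. Over all genes, 3.84% were above and 2.91% below on chow, and 6.21% and 2.79% on the Western diet. The receptor gene Ghr was at 228.9 FPKM (CD), 212.1 (CD+7KC), 178.2 (WD) and 145.9 (WD+7KC), the order of Mup3 over a smaller range. Stat5b was at 10.7, 10.6, 8.83 and 9.40 FPKM. The kinase gene Jak2 was at 4.98, 4.40, 3.96 and 5.45 FPKM. Among targets of the hormone, Igf1, the circulating growth factor, was at 102.1, 104.2, 98.9 and 68.4 FPKM, and Igfals, which carries it in serum, was at 16.8, 15.1, 18.2 and 13.1. The feedback inhibitor genes that the hormone induces were higher on the Western diet, with Socs2 at 2.38, 1.03, 4.51 and 3.38 FPKM and Cish at 2.18, 1.29, 3.08 and 5.37. Socs3, which cytokines also induce, was at 2.12, 1.83, 1.76 and 2.77 FPKM. The gene below the threshold in both diet comparisons was Bcl6, a repressor that competes with Stat5b at shared sites, at 8.04, 9.45, 3.94 and 3.46 FPKM, named here after its values had been seen. Its log2 fold change in WD relative to CD was −1.01, at the threshold, and 0 genes of the list were below −1 there with a pseudocount of 1 or with equal sums (TPM), while in WD+7KC relative to CD+7KC it was −1.42. Mup20, Socs2 and Cish were thus higher in both Western diet libraries, and Mup3, Ghr and Bcl6 were lower.

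Other genes that are higher in male than in female mouse liver, as most Mup genes are, were largely lower on the Western diet. Of 23 tested male-biased genes outside the Mup block, 0 were above 1, 7 were below −1 and 18 were lower in WD relative to CD, with a median of −0.52. Over all genes tested in WD relative to CD, 5.31% were above 1 and 4.38% below −1. In WD+7KC relative to CD+7KC, 1 male-biased gene was above, 8 were below and 15 were lower, with a median of −0.56. Over all genes, 8.01% were above and 4.61% below there. Serpina1e, a protease inhibitor of the alpha-1-antitrypsin family, was at 142.9 FPKM (CD), 23.2 (CD+7KC), 8.77 (WD) and 3.31 (WD+7KC). Elovl3, a fatty acid elongase, was at 54.6, 45.2, 9.71 and 4.41 FPKM, Cyp4a12a, a fatty acid hydroxylase, at 118.6, 109.0, 73.9 and 22.2, and Cyp2d9, a steroid hydroxylase, at 520.9, 304.7, 163.2 and 115.3. All 4 had the order of Mup3. Not all male-biased genes did, since Gstp1, a glutathione transferase, was at 345.3, 369.8, 578.1 and 522.3 FPKM, higher on the Western diet as Mup20 was. Selenbp2 was at 9.63, 3.40, 5.24 and 7.44 FPKM, and Gstp2 differed by a log2 fold change of 0.39 or less in size in every comparison. With 7KC on chow, 0 of 23 were above and 4 below, against 3.84% and 2.91% of all genes, and 20 were lower. With 7KC on the Western diet, 0 were above and 3 below, against 6.21% and 2.79% of all genes, and 19 were lower.

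The female-biased genes had another pattern. In CD+7KC relative to CD, 9 of 27 were above 1 and 0 below −1, with a median of 0.47, while Mup3 and Mup21 were lower in this comparison as in the other 3. In WD relative to CD, 5 of 26 were above and 6 below. In WD+7KC relative to CD+7KC, 3 of 27 were above and 11 below. The shares of all genes above and below were 3.84% and 2.91% in CD+7KC relative to CD. They were 5.31% and 4.38% in WD relative to CD, and 8.01% and 4.61% in WD+7KC relative to CD+7KC. Many of the female-biased genes were near 0 FPKM. Among the 17 that averaged 1 FPKM or more, 5 were above and 0 below in CD+7KC relative to CD, with a median of 0.72. In WD relative to CD, 4 were above and 3 below, with a median of 0.21. In WD+7KC relative to CD+7KC, 3 were above and 5 below, with a median of −0.01. With a filter of at least 1 FPKM in 1 of the 2 libraries, 1.57% of all genes were above and 1.08% below in CD+7KC relative to CD. These shares were 3.04% and 2.50% in WD relative to CD, and 6.21% and 3.15% in WD+7KC relative to CD+7KC. That filter is not the same as an average of 1 FPKM. With 7KC on the Western diet, 3 of 23 female-biased genes were above and 2 below, against 6.21% and 2.79% of all genes. Cyp2a4, a steroid hydroxylase, was at 30.2 FPKM (CD), 114.8 (CD+7KC), 157.4 (WD) and 193.1 (WD+7KC), and Cyp17a1, an enzyme of steroid synthesis, was at 11.8, 21.2, 31.6 and 69.1. Cyp2b9, a cytochrome P450, was at 97.4, 201.7, 115.9 and 100.4 FPKM, and its relatives Cyp2b13 (9.72, 38.8, 3.66 and 5.11) and Cyp2b10 (32.7, 64.4, 11.0 and 8.14) were also highest in CD+7KC. Hao2, an oxidase of hydroxy acids, was at 1.98, 3.54, 1.44 and 0.849 FPKM. Abcd2, a peroxisomal transporter, was at 3.70, 3.40, 10.1 and 7.48 FPKM, Atp6v0d2, a proton pump subunit, at 1.30, 1.85, 2.07 and 4.71, and Rtn4 at 53.0, 57.0, 65.1 and 58.6. The Cyp2a, Cyp2b, Cyp2d, Cyp4a12, Serpina1 and Gstp genes have close copies in the genome, so their values carry the same kind of uncertainty as those of the central Mup genes.

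**Figure D5:**
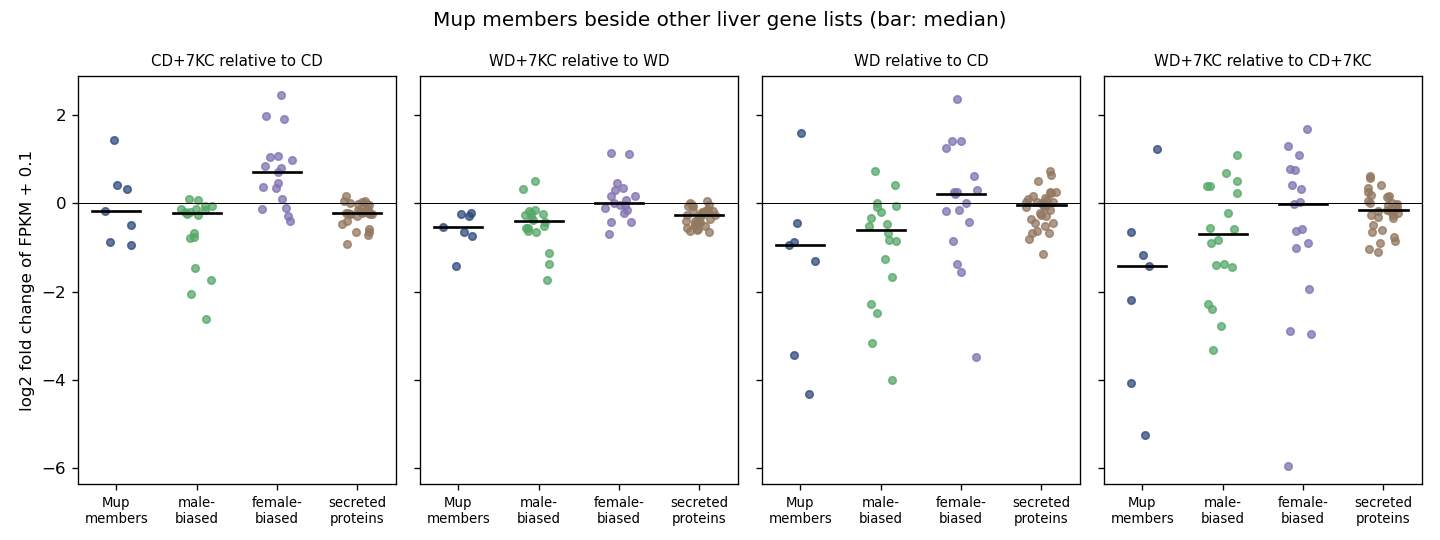
Log2 fold change of FPKM plus 0.1 in the 4 comparisons for the 7 Mup members and for genes reaching 1 FPKM on average from the male-biased, female-biased and secreted-protein lists, 1 point per gene with the median as a bar. The member median is below 0 in all 4 panels, at −0.17, −0.53, −0.95 and −1.42 from left to right, and 1 Mup point, Mup20, lies above 0 in each of the diet comparisons.

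In the comparisons with 7KC, 0 of 22 liver transcription factors were past the threshold, with a median of −0.14 on either diet. Zhx2, a transcription factor under whose control Mup genes are known to stand, was at 4.09 FPKM (CD), 4.55 (CD+7KC), 4.12 (WD) and 3.83 (WD+7KC). Hnf4a, a main regulator of hepatocyte genes, was at 120.9, 105.3, 105.5 and 93.4 FPKM. The stress-related factors Cebpb (109.8, 75.5, 79.2 and 56.1) and Cebpd (5.74, 4.80, 5.70 and 3.07) were lowest in WD+7KC. Foxa2 was at 6.68, 6.87, 7.93 and 10.3 FPKM, and Prox1 was at 11.3, 8.62, 7.35 and 9.03.

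The lipocalins and the genes beside the block that are named here had other orders than Mup20 or Mup3. Most were picked by their rise or fall with 7KC on the Western diet, so they do not stand for all genes of these lists. Of the genes beside the block that are not named, some had the order of Mup3 at under 1 FPKM. Others were higher in both Western diet libraries. Of 13 lipocalin genes tested in WD relative to CD, 2 were above and 3 below the threshold, of which Lcn4, Obp2a and Ptgds, named here after their values had been seen, averaged under 1 FPKM. Over all genes tested in WD relative to CD, 5.31% were above and 4.38% below the threshold. Lcn2, an iron-siderophore carrier of inflammation, was at 52.3, 57.8, 154.5 and 241.3 FPKM in CD, CD+7KC, WD and WD+7KC. Orm2 and Orm3 encode orosomucoids of the acute phase, and they were at 134.3, 193.4, 122.5 and 206.1 FPKM and at 74.9, 112.5, 19.9 and 21.0 FPKM. Rbp4, the retinol carrier of plasma, was at 3718, 3203, 3625 and 2691 FPKM, Ambp at 1697, 1711, 2026 and 1783, and C8g at 391.0, 420.9, 356.2 and 274.1. The Orm genes lie 1.19 to 1.21 Mb beyond Mup21 on chromosome 4. Of 18 genes tested beside the block in WD relative to CD, 1 was above (Bspry, at 0.275 FPKM or less) and 1, Orm3, was below the threshold, and the median was −0.15. The copper transporter genes Slc31a1 (52.8, 53.6, 45.2 and 37.0 FPKM) and Slc31a2 (4.94, 5.37, 4.62 and 6.07) lie 0.210 and 0.112 Mb beyond it. Pole3 was at 27.4, 33.3, 28.3 and 22.2 FPKM, Cdc26 at 34.5, 24.2, 27.7 and 24.2, and Snx30, on the other side of the block, at 1.82, 1.39, 1.44 and 1.65.

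Genes with profiles most like the members across the 4 libraries were sought among the 4668 whose mean reached 10 FPKM, by the root mean square difference of centred log2 values. Nearest to the member sum were Sdcbp2 (0.038), a scaffold protein gene, Cldn3 (0.056), a tight junction claudin, Elovl2 (0.090), an elongase of polyunsaturated fatty acids, Arsg (0.105), a sulfatase, and Foxa3 (0.127), a liver transcription factor. Cldn3, for example, was at 48.7 FPKM (CD), 38.5 (CD+7KC), 86.3 (WD) and 59.2 (WD+7KC). The nearest to Mup3 was Mir8097 (0.095), at 256.5, 132.5, 114.4 and 68.7 FPKM, and the nearest to Mup21 was C8b (0.098), a complement component, at 28.5, 15.4, 12.8 and 9.20. Nearest to Mup20 was Gm38426 (0.158). With 4 points per gene and 4668 genes searched, near profiles are a description only.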

How the data were processed

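Liver RNA of male ob/ob mice was sequenced by the authors as 75-base single-end reads, with 1 library in each of the 4 groups, which were taken from the sample labels. Reads were mapped to mm10 with TopHat2 2.0.13, Bowtie2 2.2.3 and SAMtools 0.1.19, and Cufflinks 2.2.1 gave the deposited FPKM values, 1 per gene symbol and library, which are normalized for transcript length and mapped fragments. The annotation and the treatment of reads that match several genes are not given in the sources used here.

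Log2 fold changes of FPKM plus a pseudocount of 0.1 were taken for genes above 0 in at least 1 of the 2 libraries, and changes above 1 or below −1 were counted. Such fold changes understate the change of low genes. Read numbers were estimated from the whole-read steps of low FPKM values, using transcript length minus 200 bases and, for Mup1 and Mup2, the longest RefSeq mRNA. Of low values, 70.9% to 72.3% came within 0.1 of whole reads, so the read numbers are estimates and not exact counts. The counting intervals rest on these estimates, rounded to whole reads. Mapped fragments came out at 10900000 (CD), 11020000 (CD+7KC), 9380000 (WD) and 12060000 (WD+7KC), or 9.38 to 12.1 reads per kilobase at 1 FPKM. Exact (Clopper-Pearson) 95% intervals cover counting error only. Folds were left out where neither library exceeded 3 estimated reads or 1 was listed at 0. Shared 75-base windows and coding identities were computed from GENCODE transcripts of GRCm38.

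Members and gene lists were chosen with earlier results of these data known. Named are the members, other Mup genes averaging 1 FPKM or more, for each list the up to 3 largest rises and falls with 7KC on the Western diet at that average, some genes set by name (Stat5b, Ghr, Igf1, Socs2, Hnf4a, Zhx2 and Alb), the 3 male-biased and 3 female-biased genes of highest mean, and the nearest profiles. Onecut1 and Bspry were named outside this rule, after their values had been seen, as were Bcl6, Socs1, Lcn4, Obp2a and Ptgds. Some genes that the rule names are not reported here. Alternatives were other pseudocounts, filters, scalings and thresholds. Code was tested on simulated data. Python 3.11.15, numpy 2.4.6, pandas 2.3.3, scipy 1.17.1, biopython 1.88 and matplotlib 3.10.9 were used.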

Additional observations from a re-analysis of the deposited data

Results flagged for a closer look

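The difference with 7KC had opposite signs on the 2 diets for Mup1 and Mup5. Mup1 had a log2 fold change of 0.41 in CD+7KC relative to CD and of −1.41 in WD+7KC relative to WD. Mup5 had 0.33 on chow and −0.21 on the Western diet. With 1 library per group the difference between the diets was not tested, and all of these counting intervals included 0.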

How the results depend on the processing

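No paired analysis was possible because each group had 1 library, and for the same reason no replicate could be left out. All 28 directions of a member in a comparison were kept under every alternative that gave a value, and no result turned its sign. Among them are directions whose counting interval included 0 or could not be given. Other pseudocounts and filters cannot turn a sign, so only the other scalings put these directions to a test. For Mup5 in WD+7KC relative to WD, the log2 fold change ranged from −0.23 to −0.009 across the settings. Of 136 values for counts of members and for the member sum, 110 stayed within their limits (1.5 times a count, the counting interval of a sum). The log2 fold change of the member sum in WD+7KC relative to WD was −0.34 with equal sums (TPM), −0.45 with upper quartile scaling, −0.38 with equal sums without the 20 highest genes and −0.35 with equal sums without Mup symbols. In CD+7KC relative to CD it was −0.45 under the first, second and last of these. In WD relative to CD it was 0.76, 0.71, 0.76 and 0.77, and in WD+7KC relative to CD+7KC it was 0.87, 0.70, 0.85 and 0.87. These scalings moved the median of all genes in WD+7KC relative to WD by 0.11 to 0.22. Of 988 values for single members, the central gene sum and counts of other lists, 830 stayed within such limits. Part of the 110 and of the 830 could not have moved, since filters leave a sum or a single value as it is. Mup2 and Mup4 in WD+7KC relative to WD, which have no counting interval, also had no limit. Among values that moved, the 9 female-biased genes above 1 in CD+7KC relative to CD became 5 with a pseudocount of 1. With it, the 6 and 11 below −1 in WD relative to CD and in WD+7KC relative to CD+7KC became 3 and 6. In the growth hormone pathway, the 1 gene below −1 in WD relative to CD (Bcl6) became 0 with that pseudocount and with equal sums (TPM, without the 20 highest genes or without Mup symbols), and the 1 in CD+7KC relative to CD (Socs2) became 0 with that pseudocount. With that pseudocount, 0 members were below −1 in WD+7KC relative to WD and 0 were above 1 in CD+7KC relative to CD. A filter of at least 1 FPKM also left 0 below −1 in WD+7KC relative to WD, since Mup1 was no longer tested. With the threshold at a 1.5-fold change, 3 members were below in WD+7KC relative to WD, 2 in CD+7KC relative to CD and 5 in WD relative to CD. With a threshold of 2, 0 members were below in WD+7KC relative to WD, 0 were above in CD+7KC relative to CD, WD relative to CD and WD+7KC relative to CD+7KC, and 3 were below in the last. Shares of all genes past these other thresholds are not given here, so the member counts at them have no background to be read against. The main limits are 1 library per group, few reads for Mup1, Mup2, Mup4 and Mup5 on the Western diet, and shared sequence among central genes.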

Other observations

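Some Mup genes were listed at values that no whole read gives. Mup11 was at 0.000700 FPKM (CD), 0.000684 (CD+7KC), 0.000694 (WD) and 0.000686 (WD+7KC), and Mup17 was at 0.0175 (CD), 0.0175 (CD+7KC), 0.0176 (WD) and 0.0175 (WD+7KC). These correspond to less than 1 estimated read. Mup15 and Mup19, which had 0% of their 75-base windows to themselves, were listed at 0 in all 4 libraries, although Mup2, with the same share of 0%, was not. Mup8 and Mup13 were listed at 0 in WD and WD+7KC and at 1.05 and 0.116 FPKM (Mup8) and 0.701 and 0.931 FPKM (Mup13) in CD and CD+7KC. Mup10 was at 0.134 FPKM in CD, 0.121 in WD+7KC and 0 in the other libraries.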
